A study of Homo sapiens with 6 samples.

Results

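AP-1 and immediate-early genes are a set of 10 genes, FOS, FOSB, FOSL2, JUN, JUNB, JUND, EGR1, IER2, IER3 and PHLDA1, taken by symbol from a table of 11363 genes. All 10 are listed in the table and all 10 entered the fit. The cells were NOMO-1, a human line grown from an acute myeloid leukaemia of monocytic type, and RNA-seq gave the expression. The groups were MSLN-KO, labelled as a knockout of the mesothelin gene MSLN (3 libraries), and WT, labelled as wild type (3 libraries). The labels name no clone, treatment, time or culture conditions for either group, so the tests read the spread between libraries, which may be technical, and whether 1 clone or several stand behind the knockout is not stated. The listed genes held between 23665824 and 30804446 reads per library, where read numbers, here and later, are inferred from the steps of the CPM values. MSLN itself stood at 45.9 ± 0.846 CPM (read counts scaled to library depth by the authors) in MSLN-KO and 127 ± 23.9 CPM in WT (mean ± SD, n = 3 each), a difference in the direction of the labels.

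AP-1 is a family of transcription factors built as pairs of leucine zipper proteins: a FOS protein needs a JUN protein as partner, while JUN proteins can also pair among themselves. Many of these genes are immediate-early genes, which growth factors, stress and MAP kinase signals switch on quickly through factors already present in the cell, and whose mRNAs and proteins are mostly short-lived. In myeloid leukaemia cells FOS, JUN and EGR1 are known to be induced when agents such as phorbol ester drive differentiation towards monocytes and macrophages.

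Of the 10 genes, 8 rose in MSLN-KO (FOSB, JUN, JUNB, JUND, EGR1, IER2, IER3 and PHLDA1) and 2 fell (FOS and FOSL2). A gene was called when its Benjamini-Hochberg adjusted p over the whole table, from a limma fit on log2(CPM + 1), was under 0.05. Among all genes tested, 45.7% were called, 22.4% higher and 23.3% lower. The 10 genes had a median log2 change of 0.68, beside 0.01 over all genes. The 3 libraries of one group lay entirely on one side of the other for all 10 genes, 8 above and 2 below. Among all genes tested 54.7% did so, 26.6% above and 28.1% below. The genes were chosen with results of these data known, so these counts describe them and are not independent evidence of a direction. The data are from bulk RNA, in which fewer cells expressing a gene and less RNA per cell cannot be told apart.

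**Figure D1:**
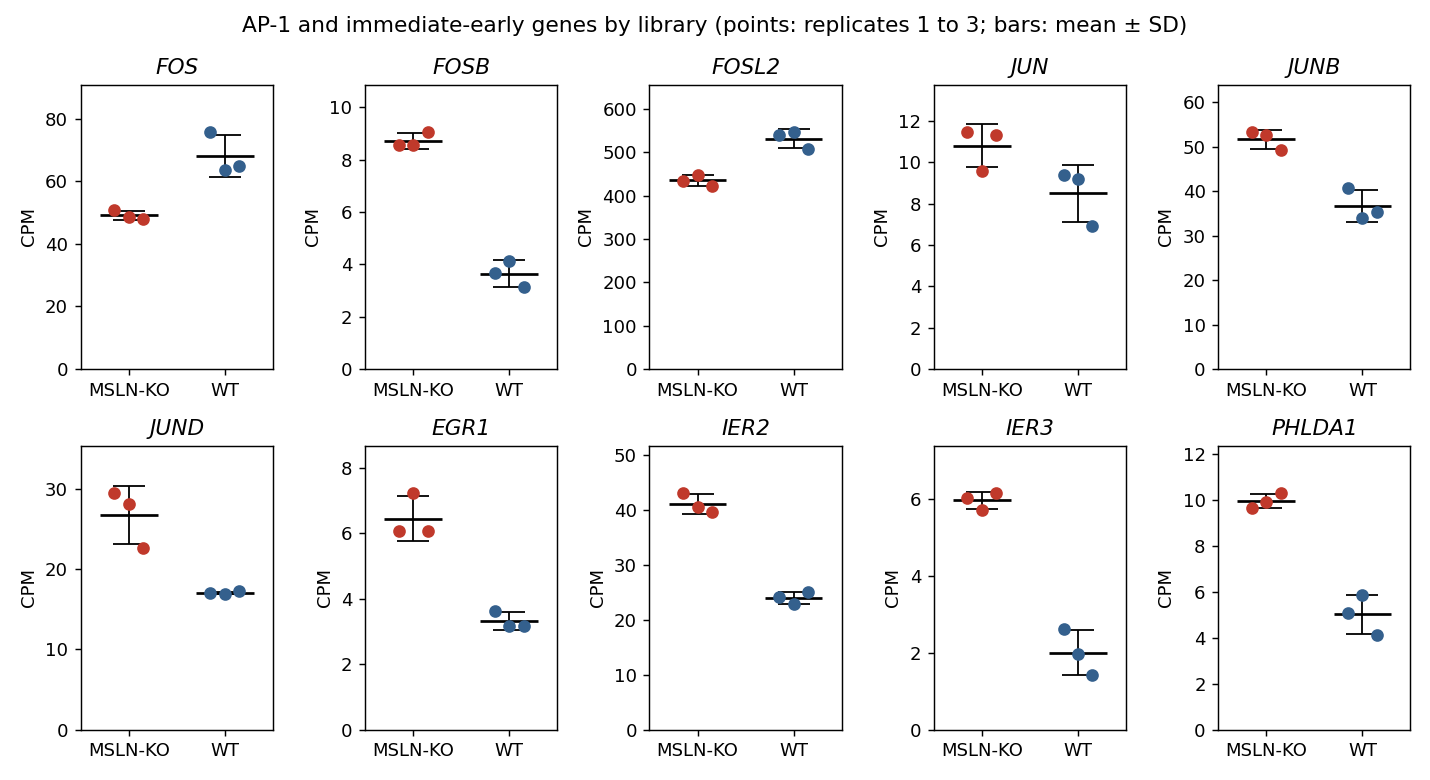
CPM of each of the 10 genes in every library, MSLN-KO on the left and WT on the right of each panel, with replicates 1 to 3 as points and the mean ± SD as bars. The groups do not overlap in any panel, and the closest libraries are those of JUN, at 9.61 CPM in MSLN-KO replicate 2 and 9.38 CPM in WT replicate 1.

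**Figure D2:**
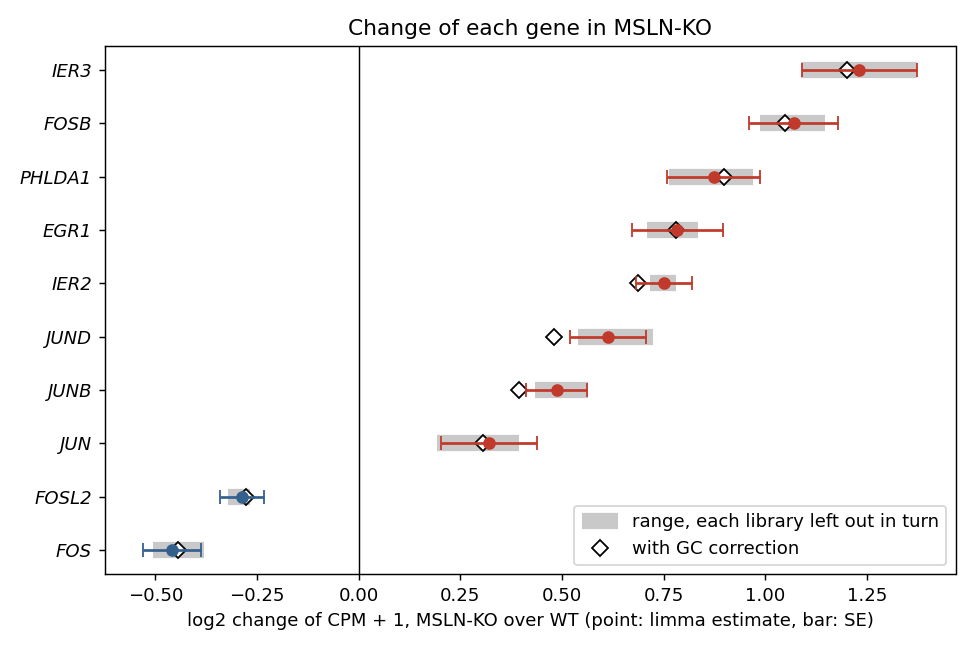
Log2 change of CPM + 1 in MSLN-KO over WT for each gene, with the limma estimate as a point, its SE as a bar, the range with each library left out in turn in grey, and the estimate after a GC correction as a diamond. FOS and FOSL2 lie below 0 at -0.46 and -0.29, and the other genes lie between 0.32 (JUN) and 1.23 (IER3).

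RefSeq promoter sequences (GRCh38.p14) matched 9 of the 10 genes, all but IER3. The 250 bases before each start were searched on both strands for letters known from immediate-early promoters, and 5 of these windows are shown: EGR1 for its serum response elements, FOS and FOSB as related genes that changed in opposite directions, and JUNB and JUND as JUN genes that rose. They are, 5′ to 3′ on the strand of the gene, EGR1 at chr5:138465229-138465478 (plus strand), FOS at chr14:75278578-75278827 (plus), FOSB at chr19:45467746-45467995 (plus), JUNB at chr19:12791236-12791485 (plus) and JUND at chr19:18281623-18281872 (minus). Capitals mark every match to the motifs described after the sequences.
EGR1: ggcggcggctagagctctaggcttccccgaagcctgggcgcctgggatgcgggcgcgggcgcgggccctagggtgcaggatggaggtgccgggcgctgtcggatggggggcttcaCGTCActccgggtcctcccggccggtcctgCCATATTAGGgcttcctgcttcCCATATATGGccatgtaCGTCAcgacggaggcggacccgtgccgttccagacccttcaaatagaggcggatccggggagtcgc
FOS: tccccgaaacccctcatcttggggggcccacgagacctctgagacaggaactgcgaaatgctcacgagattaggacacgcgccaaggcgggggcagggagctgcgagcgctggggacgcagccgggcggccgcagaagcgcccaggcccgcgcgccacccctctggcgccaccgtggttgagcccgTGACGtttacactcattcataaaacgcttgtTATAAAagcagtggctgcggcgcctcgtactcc
FOSB: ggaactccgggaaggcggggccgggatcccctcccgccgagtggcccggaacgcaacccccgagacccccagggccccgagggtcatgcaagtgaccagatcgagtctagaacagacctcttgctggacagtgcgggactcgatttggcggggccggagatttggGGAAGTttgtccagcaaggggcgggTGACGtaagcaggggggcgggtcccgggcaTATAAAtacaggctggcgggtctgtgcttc
JUNB: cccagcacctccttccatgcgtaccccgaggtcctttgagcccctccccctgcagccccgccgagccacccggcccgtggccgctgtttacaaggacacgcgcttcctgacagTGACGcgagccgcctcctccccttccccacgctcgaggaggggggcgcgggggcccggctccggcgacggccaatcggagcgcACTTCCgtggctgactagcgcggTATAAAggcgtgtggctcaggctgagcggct
JUND: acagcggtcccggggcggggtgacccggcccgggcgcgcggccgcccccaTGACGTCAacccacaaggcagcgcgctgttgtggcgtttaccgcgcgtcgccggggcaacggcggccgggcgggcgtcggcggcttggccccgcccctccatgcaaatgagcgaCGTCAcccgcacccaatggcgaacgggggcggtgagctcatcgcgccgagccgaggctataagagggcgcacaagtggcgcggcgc

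The CArG box, the core of the serum response element bound by SRF, occurred in 1 of the 9 windows, that of EGR1, which held 2 copies starting 105 and 83 bases before the start. It was present in 1.16% of the 35116 promoters in the RefSeq table. Sites more than 250 bases before a start were not searched, so absence from a window does not mean absence from the promoter. The cyclic AMP response element TGACGTCA occurred in JUND alone (1.65% of all promoters), 200 bases before the start. Its shorter core TGACG, searched after the sequences had been seen and also contained in TGACGTCA, occurred in 8 of the 9 windows, all but PHLDA1, and in 21.2% of all promoters. TATAAA, the letters of a TATA box, lay 33, 30 and 31 bases before the start of FOS, FOSB and JUNB (10.7% of all promoters). GGAAGT, which holds the core of an ETS factor site, occurred in FOSB, JUNB and IER2 (19.5% of all promoters). The AP-1 site TGANTCA (6.57% of all promoters) and the EGR1 site GCGTGGGCG (0.720%) were in none of the 9 windows. The windows of FOS and FOSB shared TATAAA and TGACG at similar distances, although the 2 genes changed in opposite directions. The starts are those of RefSeq and differ from the GENCODE release 29 positions given below. By those positions the windows of JUN, FOSL2 and PHLDA1 lie inside the gene. The window of FOS runs partly into its gene, and that of FOSB by its last base. The motif counts thus include some sequence annotated as part of a gene.

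The FOS genes did not move as one. FOS (ENSG00000170345.10, GRCh38 chromosome 14, 75278774 to 75282230, plus strand), the founding member, had 50.8, 48.5 and 48.1 CPM in MSLN-KO replicates 1 to 3 and 75.7, 63.6 and 64.9 CPM in WT replicates 1 to 3. Every MSLN-KO library was lower than every WT library, and WT replicate 1 stood above the other WT libraries. FOS was 1.39-fold lower in MSLN-KO (log2 change -0.46, SE 0.07, limma adjusted p = 0.00019).

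FOSL2 (ENSG00000075426.12, chromosome 2, 28392448 to 28417312, plus strand) encodes FRA-2, a FOS relative without the transactivation domain of FOS and FOSB. It had 434, 448 and 423 CPM in the MSLN-KO libraries and 541, 546 and 507 CPM in the WT libraries. The groups were separate and both were tight, with between 11177 and 14118 reads per library, the most of the 10 genes. FOSL2 was 1.22-fold lower in MSLN-KO (log2 change -0.29, SE 0.05, limma adjusted p = 0.00087), the smallest change of the 10 genes in size.

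FOSB (ENSG00000125740.14, chromosome 19, 45467995 to 45475179, plus strand), the FOS paralogue known for its stable short splice form, went the other way. It had 8.55, 8.55 and 9.05 CPM in the MSLN-KO libraries and 3.67, 4.14 and 3.12 CPM in the WT libraries. All MSLN-KO libraries were higher than all WT libraries by a margin wider than the spread within either group. FOSB was 2.39-fold higher (log2 change 1.07, SE 0.11, limma adjusted p = 5.2e-06). FOSB lies within the span of ERCC1, a DNA repair gene on the opposite strand, with 0 shared exon bases. ERCC1 had 93.7 ± 4.2 CPM in MSLN-KO and 76.2 ± 6.04 CPM in WT (log2 change 0.30, limma adjusted p = 0.0027). The libraries were stranded, but the strand setting of the counting is not given in the sources used here. Whether reads from ERCC1 introns were kept out of the FOSB values is therefore not known.

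All 3 JUN genes rose. JUN (ENSG00000177606.8, chromosome 1, 58780788 to 58784327, minus strand), the founding partner of FOS, had 11.5, 9.61 and 11.3 CPM in the MSLN-KO libraries and 9.38, 9.21 and 6.91 CPM in the WT libraries. The groups nearly touched, with WT replicate 3 lower than the rest. JUN was 1.27-fold higher (log2 change 0.32, SE 0.12, limma adjusted p = 0.041), and this call was the least secure of the 10. It was lost without MSLN-KO replicate 1 (log2 change 0.28, adjusted p = 0.13), MSLN-KO replicate 3 (0.29, adjusted p = 0.11) or WT replicate 3 (0.19, adjusted p = 0.19), and over all alternatives its adjusted p ran from 0.024 to 0.19.

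JUNB (ENSG00000171223.6, chromosome 19, 12791496 to 12793315, plus strand), which can oppose JUN in growth control, had 53.3, 52.6 and 49.3 CPM in the MSLN-KO libraries and 40.8, 33.9 and 35.3 CPM in the WT libraries. All MSLN-KO libraries lay above all WT libraries. The rise was 1.41-fold (log2 change 0.49, SE 0.08, limma adjusted p = 0.00018). The JUNB gene lies inside the span of HOOK2, a microtubule linker gene on the opposite strand, with 259 exon bases in common. HOOK2 had 14.4 ± 0.261 CPM in MSLN-KO and 11.6 ± 0.454 CPM in WT (log2 change 0.29, limma adjusted p = 0.0096), and how reads over the shared bases were assigned is not given in the sources used here.

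JUND (ENSG00000130522.6, chromosome 19, 18279760 to 18281622, minus strand), the JUN gene that is usually the most steadily expressed and whose protein binds menin, had 29.5, 28.1 and 22.7 CPM in the MSLN-KO libraries and 17.0, 16.9 and 17.2 CPM in the WT libraries. The WT libraries were nearly equal, and MSLN-KO replicate 3 lay between them and the other MSLN-KO libraries. JUND was 1.57-fold higher (log2 change 0.61, SE 0.09, limma adjusted p = 0.00016).

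Per length of exon, the FOS genes made up less and the JUN genes more of the AP-1 transcripts in MSLN-KO. Over FOS, FOSB and FOSL2 the summed level was 77.9, 79.1 and 75.6 CPM per kb in the MSLN-KO libraries and 99.7, 96.7 and 91.4 CPM per kb in the WT libraries. Over JUN, JUNB and JUND it was 48.3, 46.7 and 42.4 CPM per kb in the MSLN-KO libraries and 34.2, 30.3 and 30.6 CPM per kb in the WT libraries. Neither sum overlapped between groups, whereas the sum of all 6 subunits did (123 ± 4.62 CPM per kb in MSLN-KO and 128 ± 5.92 CPM per kb in WT). FOS-family transcripts per JUN-family transcript stood at 1.70 ± 0.0854 in MSLN-KO and 3.03 ± 0.144 in WT (SD, n = 3 each). These sums are over genes chosen with results known and carry no test. FOSL2 held most of the FOS sum. The length here is the union of all annotated exons, and the ratio of the families was not worked out on another length.

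**Figure D3:**
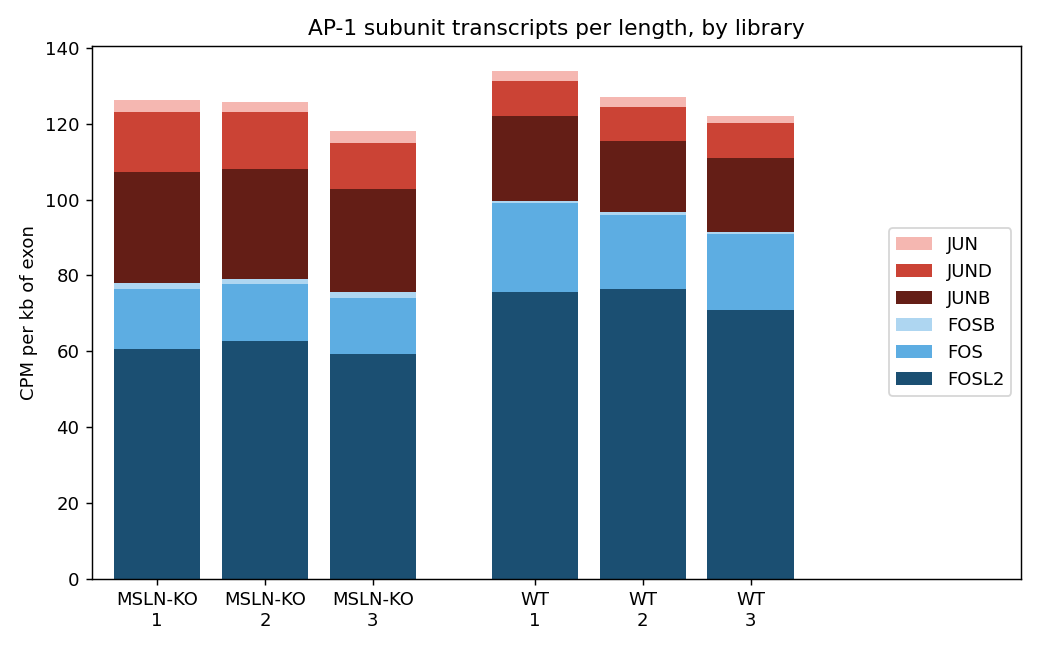
Stacked levels of the 6 AP-1 subunit genes in CPM per kb of exon, 1 bar per library, with MSLN-KO on the left and WT on the right, FOS genes in blue and JUN genes in red. FOSL2 is the largest part of every bar, and the red part is taller in the MSLN-KO libraries (42.4 to 48.3 CPM per kb) than in the WT libraries (30.3 to 34.2 CPM per kb).

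FOSL2 was the most abundant subunit per length in both groups, at 60.8 ± 1.75 CPM per kb in MSLN-KO and 74.3 ± 2.99 CPM per kb in WT. It made up 49.3% ± 1.1 of the 6 subunits in MSLN-KO and 58.2% ± 1.81 in WT. JUNB followed in MSLN-KO with a share of 23.0% ± 0.141, and it stood at 15.8% ± 1.05 in WT, where FOS had 16.5% ± 1.00. FOS had 12.3% ± 0.358 in MSLN-KO. JUND had 11.6% ± 1.16 in MSLN-KO and 7.17% ± 0.387 in WT. JUN held 2.48% ± 0.289 in MSLN-KO and 1.88% ± 0.242 in WT. FOSB was the rarest subunit in both groups, at 1.27% ± 0.0918 in MSLN-KO and 0.514% ± 0.0658 in WT. Exon length here is the union of all annotated exons, and with the longest transcript of each gene instead FOSL2 made up 47.8% ± 1.04 in MSLN-KO and 55.3% ± 1.89 in WT. On that length FOS had 16.8% ± 0.459 in MSLN-KO and 21.97% ± 1.27 in WT, JUNB 20.9% ± 0.148 in MSLN-KO and 14.0% ± 0.889 in WT, and JUND 10.5% ± 1.07 in MSLN-KO and 6.38% ± 0.355 in WT. The gaps between FOS and JUNB in WT and between FOS and JUND in MSLN-KO thus depended on the length used, and lay within the spread with the exon union but beyond it with the longest transcript. Within each WT library FOS stood above JUNB on both lengths.

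The ratio of FOSB to FOS within a library did not overlap between groups. In CPM it was 0.168, 0.176 and 0.188 in the MSLN-KO libraries and 0.0485, 0.0651 and 0.0480 in the WT libraries. The log2 ratio with 1 CPM added to both was higher by 1.53 in MSLN-KO (exact two-sided permutation test, p = 0.1, adjusted p = 0.2 over 4 ratios). With 3 libraries against 3 the smallest p this test can give is 0.1. Every MSLN-KO library was above every WT library for FOSB and below every WT library for FOS. The FOSB to FOS ratios therefore had to separate and give that p, so the test adds nothing to the changes of the 2 genes. JUNB to JUN (difference 0.17, exact p = 0.4, adjusted p = 0.4) and JUND to JUN (0.29, exact p = 0.2, adjusted p = 0.27) overlapped between groups, so a different size of change among the JUN genes was not shown. Without some single libraries these differences moved by over 1.5 times: JUNB to JUN stood at 0.08 without MSLN-KO replicate 2, 0.06 without WT replicate 2 and 0.27 without WT replicate 3, and JUND to JUN at 0.18 without MSLN-KO replicate 2.

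EGR1 (ENSG00000120738.8, chromosome 5, 138465490 to 138469315, plus strand) encodes a zinc finger factor that SRF and its ETS partners control and that takes part in macrophage differentiation. It had 6.06, 7.23 and 6.06 CPM in the MSLN-KO libraries and 3.63, 3.17 and 3.16 CPM in the WT libraries. Every MSLN-KO library was higher than every WT library, at a low level of 75 to 193 reads per library. EGR1 was 1.94-fold higher (log2 change 0.78, SE 0.11, limma adjusted p = 9.2e-05). Its promoter window is the one above with the pair of CArG boxes.

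IER2 (ENSG00000160888.7, chromosome 19, 13150415 to 13154908, plus strand), a nuclear regulator of immediate-early type, had 43.1, 40.5 and 39.7 CPM in the MSLN-KO libraries and 24.1, 22.9 and 25.0 CPM in the WT libraries. Both groups were tight and lay well apart. IER2 rose 1.71-fold (log2 change 0.75, SE 0.07) and had the lowest adjusted p of the 10 genes (limma adjusted p = 1.7e-06).

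IER3 (ENSG00000137331.12, chromosome 6, 30743199 to 30744554, minus strand), an early response gene that modulates apoptosis and ERK signalling, had 6.02, 5.73 and 6.16 CPM in the MSLN-KO libraries and 2.61, 1.97 and 1.43 CPM in the WT libraries. The MSLN-KO libraries were alike, while the WT libraries differed among themselves and rested on as few as 34 reads. IER3 showed the largest rise of the 10 genes, 2.98-fold (log2 change 1.23, SE 0.14, limma adjusted p = 1.5e-05). The ratio of IER3 to IER2 was 0.140, 0.142 and 0.155 in the MSLN-KO libraries and 0.108, 0.0861 and 0.0572 in the WT libraries. Its log2 difference of 0.48 (exact two-sided permutation test, p = 0.1, adjusted p = 0.2) depended on the pseudocount, since it was -0.02 when 5 CPM was added to both genes, and it was 0.31 without WT replicate 3.

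PHLDA1 (ENSG00000139289.14, chromosome 12, 76025447 to 76033932, minus strand) encodes a pleckstrin homology-like protein induced by growth factors and stress. It had 9.67, 9.91 and 10.3 CPM in the MSLN-KO libraries and 5.10, 5.84 and 4.13 CPM in the WT libraries. The MSLN-KO group was tight and lay above a more scattered WT group. The rise was 1.98-fold (log2 change 0.87, SE 0.11, limma adjusted p = 4.3e-05). With 5 CPM in place of 1 CPM as the pseudocount, the log2 changes of the low genes IER3, FOSB, PHLDA1 and EGR1 were 0.65, 0.67, 0.58 and 0.46, with the calls kept.

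The WT libraries scattered more than the MSLN-KO libraries for most of these genes. The coefficient of variation had a median of 3.94% in MSLN-KO and 9.85% in WT over the 10 genes, beside 5.60% in MSLN-KO and 6.15% in WT over all genes. In WT, 7 of the 10 genes varied more than the median gene, in MSLN-KO 3 of them. IER3 varied by 29.4% in WT, where counting error alone gives about 14.6%, and JUN by 16.3%, where it gives about 6.96%. The lowest WT library was replicate 3 for 6 of the 10 genes (FOSB, FOSL2, JUN, EGR1, IER3 and PHLDA1) and replicate 2 for the other 4, and the highest was replicate 1 for 5 of them. JUND, with 13.5% in MSLN-KO and 1.08% in WT, and EGR1, with 10.5% in MSLN-KO and 8.08% in WT, varied more in MSLN-KO. In WT both lay below counting error, which gives about 4.88% for JUND and 11.1% for EGR1. Counting error was not worked out for the MSLN-KO libraries, so how far it limits their low spread is not known.

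Several of the genes share a position or a base composition that moved with the knockout as a whole. FOSB, JUNB, JUND and IER2 lie on chromosome 19, where 299 of 813 listed genes were called higher and 77 lower, with a median log2 change of 0.15. The listed genes within 1 Mb of FOSB, JUND, JUNB and IER2 had medians of 0.20, 0.22, 0.12 and 0.11, below the change of each of these genes. JUND, JUNB and IER2 are also the richest of the 10 genes in GC, at 69.7%, 64.9% and 61.7% of the longest transcript. The median over 11314 genes was 47.8%, and 9 of the 10 genes, all but PHLDA1, lay above it. Listed genes with a GC content of 65% to 70% had a median log2 change of 0.13, and those of 60% to 65% one of 0.07. After a GC correction, added after the data were seen, the log2 changes were 0.48 for JUND, 0.39 for JUNB and 0.69 for IER2, and all 10 genes kept their calls. JUN, JUNB and JUND have no introns; the 211 listed protein-coding genes with a single exon had a median log2 change of 0.05. The part of chromosome 19 in these changes was not tested. Annotated antisense genes also overlap FOSL2, IER2, IER3 and PHLDA1 and were not analysed here. The libraries were stranded, but the strand setting of the counting is unknown. Whether antisense reads were kept out of the values of these genes is therefore not known.

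Of 14 genes for other bZIP proteins that pair with FOS or JUN, 8 were listed in the table, of which 3 rose, 1 fell and 4 were not called (median log2 change 0.08). A share of 4 of 8 is near the 45.7% called among all genes tested. JDP2, a repressor that binds AP-1 sites, rose 1.64-fold, with 34.2 ± 1.57 CPM in MSLN-KO and 20.9 ± 1.73 CPM in WT (limma adjusted p = 1.2e-05). The small MAF genes MAFF and MAFG had log2 changes of 0.33 and 0.31 (limma adjusted p = 0.040 and 0.00043). The call of MAFF was lost after the GC correction and without MSLN-KO replicate 1, MSLN-KO replicate 3, WT replicate 1 or WT replicate 3, and its adjusted p ran from 0.024 to 0.17 over the alternatives. MAFK and ATF7 had log2 changes of 0.11 and 0.05 and were not called. FOSL1, BATF, BATF2, BATF3, ATF3 and MAF were not analysed here.

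Among further immediate-early genes, 13 of 27 listed rose and 7 fell, with a median log2 change of 0.23. The shares over all genes tested were 22.4% higher and 23.3% lower. The largest rises were of RHOB, a small GTPase (1.93-fold), IER5L (1.81-fold), PPP1R15A, which restores translation after stress (1.66-fold), and KLF10, a zinc finger factor induced by TGF-beta (1.60-fold). The largest falls were of TRIB1, a pseudokinase that works with the ligase COP1 (1.57-fold lower), the zinc finger factor KLF4 (1.25-fold), and the antiproliferative genes BTG1 (1.21-fold) and BTG2 (1.17-fold). SGK1 and ZFP36L1 had log2 changes of 0.23 and 0.16 and were not called. With single libraries left out the rises numbered 10 to 12. Most of the falls were small, and their number was 3 without MSLN-KO replicate 1 or 2 and 4 without WT replicate 1 or 2. There were 3 falls beside 14 rises when the columns were rescaled to equal totals. The other 9 genes of this list, among them EGR2, EGR3 and NR4A2, were not analysed here.

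Of 34 genes for kinases and factors that act upstream of these genes, 5 rose, 5 fell and 24 were not called (median log2 change 0.01). Over all genes tested, 22.4% were called higher and 23.3% lower. The rises were of the kinase genes RPS6KA5, MAPK9, MAP2K7, RPS6KA3 and MAPK8 (the last chosen after its value was seen), with log2 changes of 0.30, 0.29, 0.25, 0.20 and 0.20. MAPK8 and MAPK9 encode JUN N-terminal kinases and MAP2K7 an activator of them. Of 17 settings, the main fit included, MAPK9 was called in 17, but MAPK8 and MAP2K7 in only 12 each. Their adjusted p (limma) reached 0.13 for MAPK8 and 0.15 for MAP2K7. The kinase genes MAP2K4, MAP3K1 and MAP3K5 of the same list, named after their values were seen, were called in 0 of the 17. MAP2K1, which encodes the ERK-activating kinase MEK1, fell 1.80-fold, with 32.5 ± 1.99 CPM in MSLN-KO and 58.3 ± 0.112 CPM in WT (limma adjusted p = 3.7e-07). MAPK14, which encodes p38-alpha, fell 1.34-fold, HRAS 1.29-fold and ELK3, an ETS partner of SRF, 1.18-fold. MAPK3 and BRAF had log2 changes of -0.19 and 0.17 and were not called, and SRF itself, named after its value was seen, had 37.1 ± 3.63 CPM in MSLN-KO and 36.4 ± 1.07 CPM in WT (log2 change 0.02, limma adjusted p = 0.82). The rises numbered 3 without MSLN-KO replicate 1 or 2 or WT replicate 3, the falls 3 without MSLN-KO replicate 1 or 3 or WT replicate 2 and 2 without WT replicate 3, and with columns rescaled to equal totals there were 6 rises and 3 falls.

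A list of genes that repress AP-1 and EGR1 or act on the turnover of their mRNAs and proteins, in either direction, gave 1 rise and 5 falls among 16 (median log2 change 0.01). The whole set of tested genes had 22.4% called higher and 23.3% lower. ZFP36, which speeds the decay of AU-rich mRNAs, rose 1.28-fold (limma adjusted p = 0.0016). NEDD4, a ubiquitin ligase, fell 1.69-fold, DET1, a partner of COP1 in JUN turnover, 1.49-fold, SIN3A, a corepressor scaffold, 1.38-fold and ELAVL1, which stabilises AU-rich mRNAs, 1.16-fold. The fifth, HDAC3, a histone deacetylase gene named after its value was seen, had a log2 change of -0.15. NEDD4, DET1, SIN3A and, above, MAP2K1 lie on chromosome 15, where 308 of 371 listed genes were called lower (median log2 change -0.57). NAB2, a corepressor of EGR1, and FBXW7 had log2 changes of 0.25 and 0.20 and were not called. The falls numbered 3 without MSLN-KO replicate 3 or WT replicate 3, the rises 2 without MSLN-KO replicate 2 or 3 or WT replicate 2, and with columns rescaled to equal totals there were 3 rises and 4 falls.

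**Figure D4:**
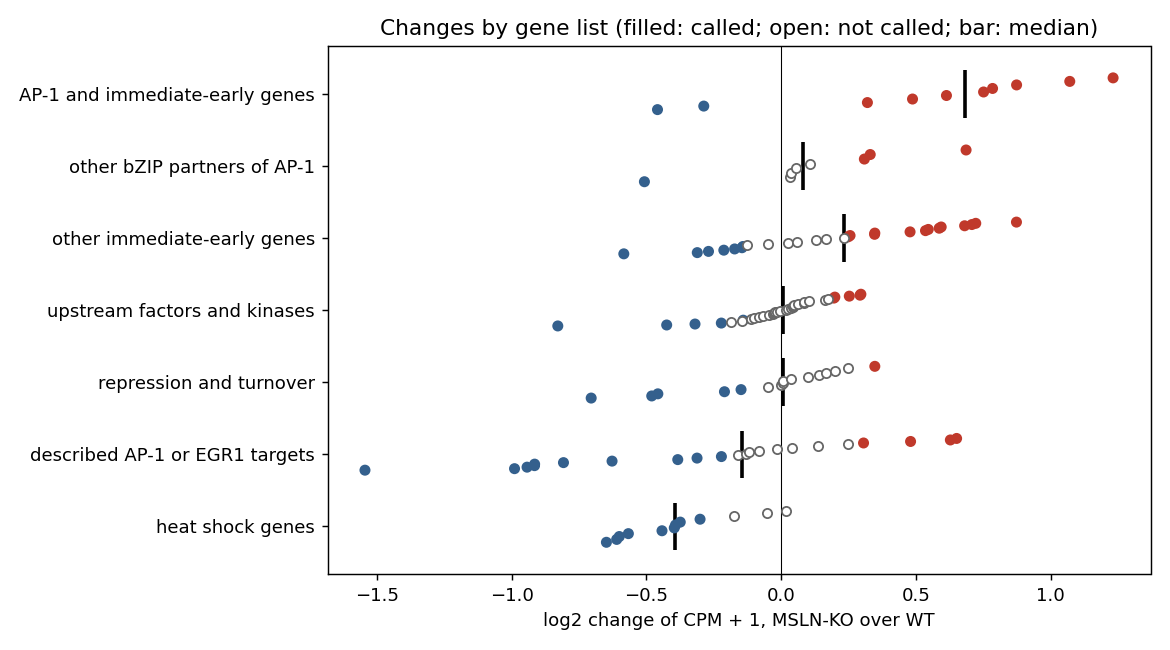
Log2 change of CPM + 1 in MSLN-KO over WT for every listed gene of each list, 1 point per gene, filled where called and open where not, with the median as a bar. The 10 AP-1 and immediate-early genes have a median of 0.68, the other immediate-early genes 0.23, the described targets -0.14 and the heat shock genes -0.39.

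Genes described as AP-1 or EGR1 targets did not rise as a list. Of 22 listed, 4 rose and 10 fell (median log2 change -0.14), beside 22.4% higher and 23.3% lower among all genes tested. The plasminogen activator gene PLAU (1.64-fold), the tissue factor gene F3 (1.63-fold), the integrin gene ITGAX (1.40-fold) and TNF (1.26-fold) rose. HMOX1, which encodes haem oxygenase, fell 4.26-fold, MMP9, a matrix protease gene, 2.28-fold, S100A9, a calcium-binding protein gene of monocytes and neutrophils, 2.00-fold and SPP1, the osteopontin gene, 1.87-fold. NAB2 (log2 change 0.25) and FTH1 (-0.16) were not called. With single libraries left out the rises numbered 3 to 6 and the falls 9 to 11.

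Of 12 heat shock genes, a list of chaperones some of which stress and handling can raise, 9 fell and 0 rose. The shares among all genes tested were 23.3% lower and 22.4% higher. By limma at an unadjusted p under 0.05 the rises in this list were also 0. The largest falls were of HSPA8, HSPE1, HSPH1 and HSPA1A, with log2 changes of -0.65, -0.61, -0.60 and -0.57, all chaperone genes. HSPB1 (log2 change -0.18), HSPA1B (-0.05) and DNAJB1 (0.02), the last named after its value was seen, were not called. The summed level of the 12 genes was 2996 to 3060 CPM in MSLN-KO and 3903 to 4418 CPM in WT. HSPA1A and HSPA1B are near-identical copies whose reads the counting could split. The part of these values in the changes of the immediate-early genes was not tested.

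The cells carried markers of their labelled type. All 14 monocytic and myeloid leukaemia markers were listed, with PTPRC, the pan-leukocyte gene CD45, at 394 ± 13.4 CPM in MSLN-KO and 422 ± 26.4 CPM in WT. Of the 14 genes 4 rose and 8 fell, beside 22.4% higher and 23.3% lower among all genes tested. The summed level of the 14 genes was 8565 to 8880 CPM in MSLN-KO and 17877 to 18499 CPM in WT. The lysozyme gene LYZ held most of that sum, with 6081 ± 320 CPM in MSLN-KO and 14540 ± 317 CPM in WT, and the median log2 change of the list was -0.30. The rises were of FCGR1A (1.74-fold), CEBPB (1.49-fold), CD33 (1.32-fold) and ITGB2 (1.13-fold). The groups of ITGB2 overlapped, with 787 CPM in MSLN-KO replicate 3 and 792 CPM in WT replicate 1. Its call (limma adjusted p = 0.044) held in 11 of 17 settings, the main fit included. The largest falls were of MPO, ELANE, LYZ and CD14. MPO, the myeloperoxidase gene of granule-bearing precursors, had 45.7 ± 7.65 CPM in MSLN-KO and 744 ± 84.1 CPM in WT. The part of this shift in the changes of the 10 genes was not tested. Of other cell types, the lists of T and NK, B, erythroid and megakaryocytic, epithelial and mesothelial, and stromal and endothelial markers each had 1 listed gene (NKG7, CD79B, ITGA2B, KRT18 and PECAM1). NKG7 had 29.3 to 34.8 CPM in MSLN-KO and 37.1 to 40.9 CPM in WT, and CD79B 3.65 to 4.31 CPM in MSLN-KO and 13.0 to 15.3 CPM in WT. ITGA2B had 6.72 to 7.42 CPM in MSLN-KO and 1.39 to 2.04 CPM in WT, KRT18 7.07 to 9.05 CPM in MSLN-KO and 7.97 to 9.71 CPM in WT, and PECAM1 379 to 387 CPM in MSLN-KO and 497 to 533 CPM in WT. The other genes of these 5 lists were not analysed here.

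The genes whose pattern over the 6 libraries was most like that of FOS, by Pearson's r of log2(CPM + 1) among genes of at least 10 CPM on average, were CCDC127, NREP, LRIG1, a brake on growth factor receptors, TSPAN3, a tetraspanin gene, and TOP1MT, a mitochondrial topoisomerase gene, with r between 0.991 and 0.997. Among those most like EGR1 were RASAL3, WDR35, POLR1E, a subunit of RNA polymerase I, and MID1IP1, with r between 0.994 and 0.997. The libraries fall into the 2 groups, so these values mostly carry the difference between groups, and they are given as a description.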

How the data were processed

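The authors deposited 1 table of CPM for 6 libraries (3 MSLN-KO, 3 WT), made, per the labels' protocols, from stranded total RNA after removal of ribosomal RNA. STAR, featureCounts, edgeR and the builds GRCh38 and hg38 are named in the submitters' processing notes, with no versions. No strand setting or annotation release is given in the sources used here. Column totals of 967718 to 1009572 CPM and values at whole steps of 1 read (within 0.01) gave the reads per library. These read numbers are inferred from the CPM values. The table holds too few low values to check the step firmly, so no count test of the change was run. The inferred reads describe depth and give the approximate counting error in the text. The lowest gene averages 2.85 CPM.

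The fit used limma 3.58.1 in R 4.3.3 (lmFit, eBayes with a trend) on log2(CPM + 1), two-sided, with Benjamini-Hochberg adjustment over all 11363 genes and a threshold of 0.05. Fold changes on that scale understate low genes, and folds in the text are ratios of mean CPM. A minimum mean of 0.5 CPM removed no gene. Positions are those of GENCODE release 29 on GRCh38, matched by gene ID for 11314 genes. Alternatives were pseudocounts of 0.5 and 5, no filter, a minimum mean of 5 CPM, 2 other scalings (columns rescaled to equal totals, and median-of-ratios), no variance trend, a block for replicate number and each library left out. A GC correction was added after the data were seen.

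The 10 genes and all lists were chosen with earlier results of these data known. Named genes are the 10, MSLN, up to 4 called genes per direction and 2 not called from each list, and the 5 genes most like FOS and EGR1. Further genes are marked where named. A few genes that this rule selects are not reported here, though they are included in the counts. A planned comparison of protein sequences was not made. On the inferred reads, no 2 libraries of a group agreed within counting noise (a chi-square of 2.71 to 14.8 per degree of freedom).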

Additional observations from a re-analysis of the deposited data

How the results depend on the processing

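Of the 10 genes, 9 kept their direction and call in every setting that tested them, and JUN lost its call without MSLN-KO replicate 1, MSLN-KO replicate 3 or WT replicate 3, as given above, so that the number higher was 7 to 8 over single libraries left out and the number lower was 2 throughout. A minimum mean of 5 CPM left EGR1 and IER3 untested and gave 6 higher. Among all genes tested, 2545 were higher and 2652 lower, and rescaling to equal totals gave 2942 and 2278, a shift of the median gene of 0.04 (log2). With columns rescaled to equal totals, the falls were 3 among other immediate-early genes and 3 among upstream factors, and the rises 3 among genes of repression and turnover; without a variance trend they were 4 falls among other immediate-early genes and 2 rises in repression and turnover. The GC correction gave 3 rises in repression and turnover, and 2 together with the replicate block. With each library left out in turn, other immediate-early genes had 10 to 12 rises and 3 to 6 falls. Upstream factors then had 3 to 7 rises and 2 to 5 falls, and repression and turnover 1 to 2 rises and 3 to 5 falls. The log2 ratio of IER3 to IER2 differed by -0.018 with a pseudocount of 5. The cause of these differences was not tested. Replicate numbers did not pair the libraries: deviations of same-numbered libraries correlated at 0.19, -0.17 and -0.09, and not every library correlated best with its own number. The fit with the replicate block called 2413 genes higher and 2533 lower over the whole table, 8 of the 10 genes higher and 2 lower, 11 rises and 5 falls among other immediate-early genes, and 2 rises among bZIP partners, MAFF losing its call. Counting error is widest for IER3, with as few as 34 reads in a WT library.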
